A study of Mus musculus with 25 samples.

Results

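Small leucine-rich proteoglycans are a family of secreted proteins of the extracellular matrix. The 8 genes described here, Dcn, Bgn, Aspn, Fmod, Lum, Prelp, Omd and Ogn, were chosen by name as family members and not by their values, and all 8 were found among the 47729 genes of the bulk RNA-seq count table and among the 31053 features of the single-cell RNA-seq matrices. The study followed mouse lung fibrosis after intratracheal bleomycin and asked how loss of the death receptor Fas from collagen-producing cells changes the cells that remain when fibrosis would otherwise resolve. Lineage-negative (Lin-) lung cells, sorted to lack CD45, CD31 and CD326, were profiled in 20 bulk libraries, 4 in each of 5 groups, and in 5 single-cell libraries, 1 for each condition. All mice carried Fas fl/fl and the Col1a1-Cre-ERT2 transgene, in which the Col1a1 promoter drives a Cre that needs tamoxifen to act. The naive group (labelled Control) was not instilled. The Fas+/+ groups (labelled WT) received bleomycin and corn oil, and the Fas-/- groups (labelled FasDel) received bleomycin and tamoxifen, so genotype and tamoxifen are 1 factor and cannot be told apart. Cells were taken at 3 and 6 weeks. Each single-cell library pooled 4 mice, and the age of the mice is not given in the sources used here. The study's methods describe replicates as individual animals and the figures on the bulk data give 4 per group, while the labels do not name the animal behind a bulk library.

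The members share a core of leucine-rich repeats that binds collagen fibrils and sets their spacing and width. Decorin (Dcn), biglycan (Bgn) and asporin (Aspn) form class I of the family, and decorin and biglycan carry chondroitin or dermatan sulfate chains, whereas asporin carries none. Fibromodulin (Fmod), lumican (Lum), Prelp and osteomodulin (Omd) form class II, several of them with keratan sulfate chains, and osteoglycin (Ogn) belongs to class III. Decorin binds TGF-β and is known to restrain it, and biglycan released from matrix signals through Toll-like receptors.

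Bulk totals were 11819700 to 25189096 counts, and CPM here means counts per 1000000 counts after TMM scaling. The summed CPM of 7 blood endothelial markers, which the CD31 gate was meant to remove, was 137 to 375 in naive libraries, 1878 to 7436 in 3-week Fas+/+ libraries and 521 to 6748 in 3-week Fas-/- libraries, and none of the 7 was at 0 in any library. Summed erythroid markers were 2979 to 9589 CPM in naive libraries and 17.1 to 235 CPM in the bleomycin libraries, with all 5 lower in each bleomycin group against naive (median log2 fold change -6.76 in 3-week Fas+/+) and none at 0 in any library, and their part in the comparisons with naive was not tested. Replicate 1 of 3-week Fas+/+ and replicate 4 of 3-week Fas-/- held the top endothelial values, and the 8 members summed to 6571 and 7372 CPM there. Member calls that involve 3-week libraries are also given without both, a setting chosen after the data had been seen. Both also had the lowest mean log2 CPM of profibrotic fibroblast markers in their groups. It was 7.46 against 10.01 to 10.32 in the rest of 3-week Fas+/+, and 8.14 against 9.57 to 9.96 in the rest of 3-week Fas-/-. Leaving both out therefore removes low profibrotic markers together with high endothelial markers. Fas itself, counted over the whole gene, was 34 to 57.7 CPM in 3-week Fas+/+ and 34.4 to 64.9 CPM in 3-week Fas-/- libraries (adjusted p = 0.91, edgeR), and gene counts do not resolve the deleted stretch. From its single-cell data the study reported fewer cells expressing the deleted exon in Fas-/- than in Fas+/+ mice at both weeks. Some Fas-/- cells still expressed it. In the single-cell data 12059 of 13900 barcodes were kept, and 543 barcodes occurred in more than 1 library. They made up 57.0% of the 603 naive cells and 5.99% to 14.3% of the cells of the other libraries. For each pair of libraries 86.8% to 97.7% of the shared barcodes fell in the same cell class. Whether shared barcodes mark the same cells was not tested. Some naive single-cell values are therefore also given without them, and the others include them. The label calls the material primary lung fibroblasts, but the single-cell libraries also held cells with blood endothelial, epithelial, erythroid, pericyte and smooth muscle markers. In bulk libraries fewer cells of a type and less RNA per cell cannot be told apart.

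Per kilobase of merged exons, Prelp and Bgn had the highest values of the members in naive Lin- cells. Prelp stood at 934 ± 60.9 RPKM (SD, n = 4; RPKM is CPM per kilobase of merged exons) and Bgn at 898 ± 56.0 RPKM, and their libraries overlapped. Ogn at 219 ± 19 RPKM and Dcn at 204 ± 37.5 RPKM overlapped each other about 4 times lower down the order. Fmod at 41.7 ± 4.46 RPKM, Aspn at 31.7 ± 6.90 RPKM and Lum at 24.4 ± 6.25 RPKM followed, each overlapping its neighbour, and Omd was the rarest member at 1.91 ± 0.318 RPKM. At 3 weeks in Fas+/+ cells the order was Bgn (963 RPKM), Prelp (495), Dcn (150), Fmod (106), Ogn (84.1), Lum (35.3), Aspn (19.4) and Omd (0.522), so Fmod had passed Ogn in the mean. Neither Dcn against Fmod nor Fmod against Ogn was apart in range, since Fmod spanned 28.7 to 136 RPKM. Both orders depend on the exon length used. Merged exons were 5838 bases for Dcn and 6099 for Bgn, against 2249 to 3615 for the other members. The naive single-cell library, which uses no length, gave Bgn 2549, Dcn 1964, Ogn 1275 and Prelp 712 UMI CPM (UMIs scaled to the library total). Without barcodes shared between libraries these were 2285, 735, 1199 and 731.

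Most members lie in 3 clusters of the genome (GRCm38). On chromosome 13 Aspn (chr13:49544443-49567565), Omd (chr13:49582462-49592822) and Ogn (chr13:49608046-49624501) follow each other on the plus strand. On chromosome 1 Prelp (chr1:133910304-133921414, minus strand) lies beside Fmod (chr1:134037254-134048277, plus strand), and on chromosome 10 Dcn (chr10:97479609-97518143) lies beside Lum (chr10:97565128-97572703). Bgn is on the X chromosome (chrX:73483602-73495933). Exons of Prelp share 350 bases with Gm15851 and those of Aspn share 7 bases with Cenpp, both on the opposite strand. The library kit kept strand, but the strand setting of the counting is not given in the sources used here, so a small part of those counts could belong to the partner.

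The 150 bases before the RefSeq start (GRCm38.p6) are shown for Ogn, Omd and Prelp, which were lower at 3 weeks than in naive cells with no overlap in either genotype, and for Fmod, the member called higher. They were read at chr13:49607865-49608014 (plus), chr13:49582312-49582461 (plus), chr1:133921402-133921551 (minus) and chr1:134037104-134037253 (plus), 5′ to 3′ on the gene's strand. Capitals mark matches, on either strand, to a TATA box (the letters TATAAA), an AP-1 motif (TGANTCA), a TEAD motif (GGAATG) or a SMAD motif (CAGAC).
Ogn: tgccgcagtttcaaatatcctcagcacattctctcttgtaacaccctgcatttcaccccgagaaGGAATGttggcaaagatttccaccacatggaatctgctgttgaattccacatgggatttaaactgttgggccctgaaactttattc
Omd: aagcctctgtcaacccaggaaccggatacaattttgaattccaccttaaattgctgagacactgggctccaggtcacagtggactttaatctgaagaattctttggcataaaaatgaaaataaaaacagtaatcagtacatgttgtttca
Prelp: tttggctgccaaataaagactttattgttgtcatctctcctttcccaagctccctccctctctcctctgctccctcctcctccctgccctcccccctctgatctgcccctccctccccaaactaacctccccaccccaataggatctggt
Fmod: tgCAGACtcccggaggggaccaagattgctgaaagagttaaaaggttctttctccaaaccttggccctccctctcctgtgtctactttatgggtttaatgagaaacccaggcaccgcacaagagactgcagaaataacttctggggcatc
Ogn held 1 match to the TEAD letters and Fmod 1 to the SMAD letters, and Omd and Prelp held none of the 4 motifs. Of 32851 mouse promoters of this length 7.59% held the TEAD letters, 27.7% the SMAD letters, 7.57% the TATA box and 4.24% the AP-1 letters. A match is a description of the letters and not evidence of a bound site.

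At 3 weeks after bleomycin the Fas+/+ Lin- cells held less Ogn, Prelp, Omd and Aspn mRNA than naive cells and more Fmod. By edgeR's quasi-likelihood test with Benjamini-Hochberg adjustment over 15773 genes, 5 of the 8 members passed at an adjusted p of 0.05 or less, 1 higher and 4 lower. Of all tested genes 41.3% passed, 22.1% higher and 19.2% lower, and whether the share among the 8 members differs from this was not tested. The median log2 fold change was -0.57 over the members and 0.01 over all tested genes.

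Osteoglycin, which regulates collagen fibril formation and was first described as a bone-associated protein, fell furthest among the abundant members. In replicate order Ogn was at 634, 527, 536 and 553 CPM in naive libraries and at 325, 166, 144 and 228 CPM in 3-week Fas+/+ libraries. The groups did not overlap, with the highest 3-week value in the endothelial-rich replicate 1. Ogn fell by 1.38 on the log2 scale (SE 0.191, adjusted p = 3.74e-05, edgeR), to 0.384 of the naive level. Prelp, which anchors basement membranes to collagen, was at 3587, 3155, 3217 and 3540 CPM in naive and at 2052, 1575, 1532 and 1993 CPM in 3-week Fas+/+ libraries. These 4 values were all below every naive value, and Prelp fell by 0.92 on the log2 scale (SE 0.129, adjusted p = 4.29e-05). Omd, a keratan sulfate proteoglycan best known from bone, was at 3.23, 4.71, 4.73 and 4.5 CPM in naive and at 1.62, 0.750, 1.06 and 1.27 CPM in 3-week Fas+/+ libraries, on 12 to 33 counts in the latter. It fell by 1.86 (SE 0.264, adjusted p = 4.65e-05), a change in so few counts that its size is known only to within 1.30 to 2.41 (95% interval). These 3 were the members whose groups did not overlap, where 32.2% of all tested genes had groups that did not overlap. They also passed without the endothelial-rich libraries, at -1.65 for Ogn, -0.99 for Prelp and -2.07 for Omd. Lipofibroblast markers moved the same way, with 7 of 8 lower and a summed level of 9307 to 10900 CPM in naive against 3134 to 5274 CPM in 3-week Fas+/+ libraries and no marker at 0. Pericyte (7 of 7) and mesothelial markers (6 of 7) were lower too, and the part of each in these values was not tested.

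Fibromodulin, which binds collagen and TGF-β, was the member that rose. It was at 142, 116, 144 and 149 CPM in naive libraries and at 94.7, 432, 451 and 429 CPM in 3-week Fas+/+ libraries. Replicate 1 was below all naive libraries and the other 3 were above all of them, so the groups overlapped. The fitted log2 fold change was 1.35 (SE 0.384, adjusted p = 0.00931, edgeR) and the exact permutation test on the 8 libraries gave p = 0.143 (two-sided), where the smallest p that 4 against 4 allows is 0.0286. Profibrotic fibroblast markers were higher in 6 of 7 cases, with no marker at 0. Their sum had a similar pattern, with 7860 CPM in the lowest 3-week Fas+/+ library, a median of 32980 CPM and a naive range of 8773 to 10100 CPM. The mean log2 CPM of these markers was also lowest in replicate 1, at 7.46 against 10.01 to 10.32 in the other 3 libraries. There replicate 1 lay above the naive range of 6.47 to 6.96, and not below it as for Fmod. The part of these markers in the Fmod value was not tested. Leaving out the endothelial-rich libraries gave Fmod a log2 fold change of 1.66 (adjusted p = 4.63e-05).

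Among the class I members asporin, a calcium-binding protein that binds collagen and TGF-β, fell. Aspn was at 51.9, 74.9, 81.8 and 89.5 CPM in naive and at 42.0, 48.9, 36.2 and 55.3 CPM in 3-week Fas+/+ libraries, and the lowest naive library lay among the latter. It fell by 0.71 on the log2 scale (SE 0.199, adjusted p = 0.00886, edgeR), with p = 0.0571 in the exact permutation test. Aspn passed without the endothelial-rich libraries (-0.67, adjusted p = 0.00302), and its call was lost with a covariate for endothelial markers (-0.26, adjusted p = 0.495). That covariate was itself lower in every naive library (mean log2 CPM 3.60 to 5.12) than in every 3-week library of either genotype (5.81 to 9.53). A fit with it therefore cannot separate the markers from the difference between these groups. Hhip myofibroblast markers were lower in 5 of 6 cases, with 784 to 1248 CPM in naive and 410 to 674 CPM in 3-week Fas+/+ libraries, no marker at 0, and a part in the Aspn value that was not tested. Decorin (Dcn) was at 935, 1339, 1081 and 1402 CPM in naive and at 710, 834, 774 and 1190 CPM in 3-week Fas+/+ libraries. These overlapped and the log2 fold change of -0.44 did not pass (adjusted p = 0.0698). It passed with a replicate block (-0.45, adjusted p = 0.0351), without naive replicate 1 (-0.56, adjusted p = 0.0398) and without Fas+/+ replicate 4 (-0.62, adjusted p = 0.0136). Adventitial Col14a1 fibroblast markers were lower in 6 and higher in 0 of 7 cases. They summed to 2323 to 3437 CPM in naive and 1408 to 2041 CPM in 3-week Fas+/+ libraries, and their part in the Dcn value was not tested. Biglycan at 4994 to 5726 CPM in naive and 3307 to 7056 CPM in 3-week libraries (log2 fold change 0.10, adjusted p = 0.697) and lumican, a corneal and skin collagen organiser, at 45.5 to 79.7 and 39.9 to 112 CPM (0.54, adjusted p = 0.192) did not pass either. For both genes the endothelial-rich replicate 1 was the lowest of the group. When both endothelial-rich libraries were left out, Bgn (0.29, adjusted p = 0.0106) and Lum (0.77, adjusted p = 0.00238) passed, which took the members called to 7 of 8, 3 higher and 4 lower, beside 50.7% of 15952 tested genes.

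**Figure D1:**
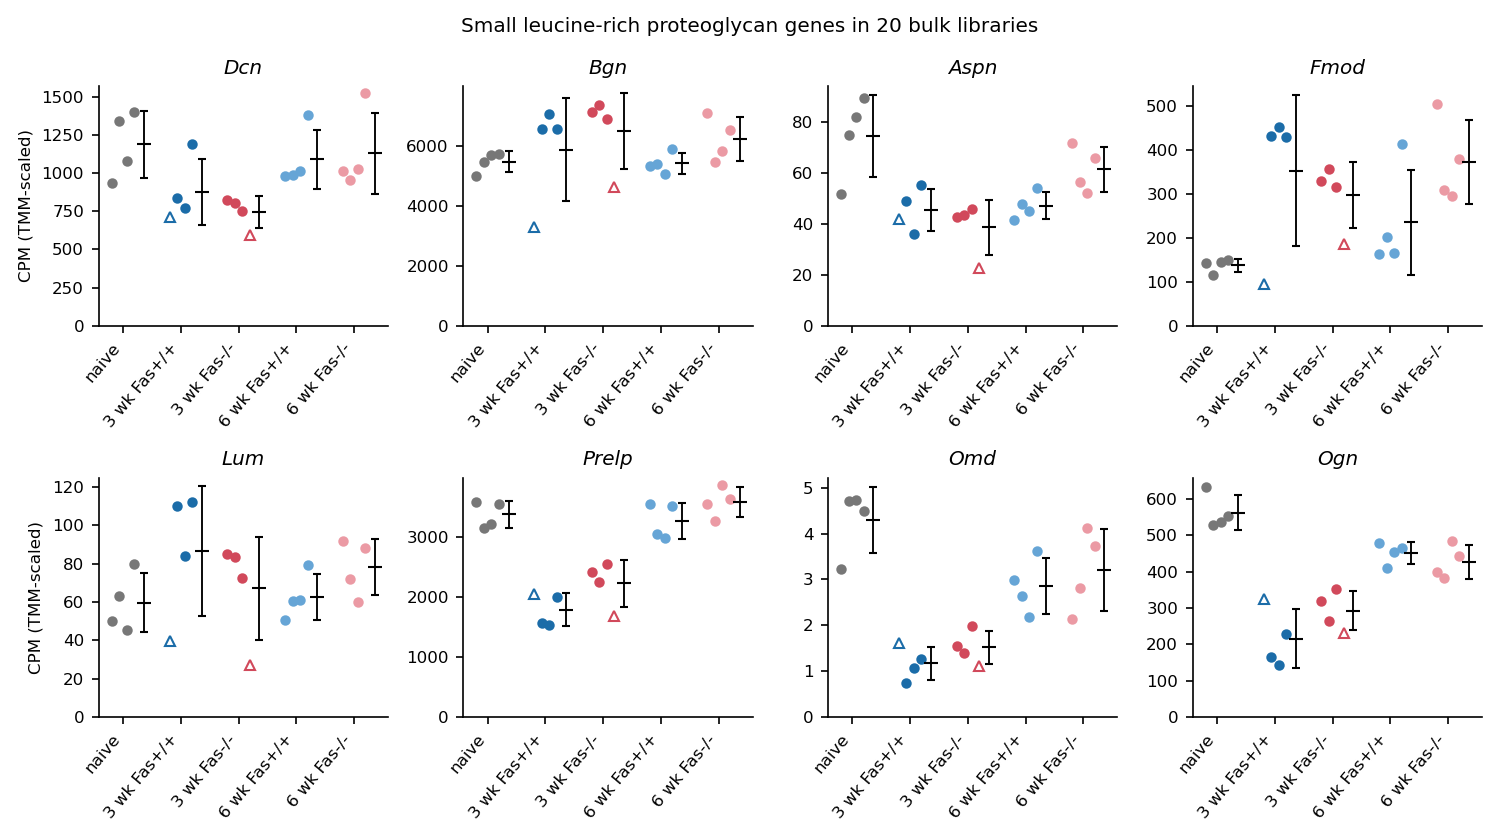
CPM (TMM-scaled, linear axes from 0) of the 8 members in the 20 bulk libraries. Points are libraries, horizontal bars with whiskers are mean ± SD (n = 4), and open triangles mark the 3-week Fas+/+ and Fas-/- libraries richest in endothelial markers. Ogn, Prelp and Omd sit lower in both 3-week groups than in naive libraries, and the triangles are the lowest points of both 3-week groups for Dcn, Bgn, Lum and Fmod.

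In 3-week Fas-/- cells Ogn, Prelp, Omd, Aspn and Dcn mRNA was lower and Fmod mRNA higher than in naive cells. These were 6 of the 8 members, 1 higher and 5 lower, where 32% of all tested genes passed, 17.2% higher and 14.8% lower. Those 6 were also the members whose groups did not overlap, as for 31.1% of all tested genes, and each had p = 0.0286 in the exact permutation test. This comparison and the previous one share the 4 naive libraries. Dcn was at 824, 803, 753 and 594 CPM in 3-week Fas-/- libraries, below all naive values, and fell by 0.68 on the log2 scale (SE 0.189, adjusted p = 0.0116, edgeR). That call was lost with the endothelial covariate (-0.48, adjusted p = 0.112), and Dcn did not pass between the genotypes (-0.24, adjusted p = 0.78). Ogn at 320, 266, 352 and 232 CPM fell by 0.94 (SE 0.189, adjusted p = 0.00137), and Aspn at 42.8, 43.4, 45.9 and 22.6 CPM fell by 0.95 (SE 0.200, adjusted p = 0.00202). All 8 members were lowest in the endothelial-rich replicate 4 of this group. Prelp at 2412, 2250, 2556 and 1680 CPM fell by 0.60 (adjusted p = 0.00216) and Omd at 1.56, 1.40, 2.00 and 1.12 CPM fell by 1.49 (adjusted p = 0.000398). Fmod at 329, 357, 315 and 187 CPM was above all naive libraries, with a log2 fold change of 1.11 (SE 0.382, adjusted p = 0.0342). The Fmod call was lost when any 1 of 7 of the 8 compared libraries was left out (all but replicate 4 of the Fas-/- group), with a log2 fold change of 0.99 to 1.27. Bgn (0.25, adjusted p = 0.334) and Lum (0.17, adjusted p = 0.722) did not pass, and replicate 4 was again the lowest of its group for both. With the endothelial-rich libraries left out Dcn (-0.59), Ogn (-0.85), Aspn (-0.77), Prelp (-0.49), Omd (-1.38) and Fmod (1.27, adjusted p = 0.000918) passed again, Bgn passed (0.38, adjusted p = 0.00332) and Lum did not (0.42, adjusted p = 0.0866), so 7 members were called beside 37.6% of tested genes. Blood endothelial markers were higher in 6 of 7 cases and lipofibroblast markers lower in 5 and higher in 1 of 8. Adventitial Col14a1 fibroblast markers were lower in 5 and higher in 0 of 7 cases. They summed to 1616 to 1966 CPM in 3-week Fas-/- and 2323 to 3437 CPM in naive libraries. The part of these markers in the member values was not tested.

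At 6 weeks in Fas+/+ cells none of the 8 members passed against naive, where 5.31% of all tested genes passed, 3.57% higher and 1.74% lower, while 2 members, Aspn and Omd, had an unadjusted p below 0.05 and DESeq2 called 1, Aspn. Fmod at 163, 201, 166 and 413 CPM lay above all naive libraries and Ogn at 479, 409, 454 and 465 CPM below all of them, and neither passed (log2 fold changes 0.77 and -0.32, adjusted p = 0.274 and 0.381). They were the 2 members without overlap, beside 16.6% of all tested genes. Aspn at 41.7, 47.6, 44.9 and 54.1 CPM had a log2 fold change of -0.66 (adjusted p = 0.0613), close to its 3-week value of -0.71, and passed with DESeq2 (adjusted p = 0.0195), with the compared groups alone (adjusted p = 0.0214) and without naive replicate 1 (adjusted p = 0.0302). Omd was at -0.58 (adjusted p = 0.193). Dcn (-0.13), Bgn (-0.01), Lum (0.07) and Prelp (-0.04) had the smallest changes. Without the endothelial-rich libraries, which are not part of this comparison but enter the shared estimate of the spread, Fmod (0.77, adjusted p = 0.0407) and Aspn (-0.67, adjusted p = 0.00824) passed, beside 13.2% of tested genes.

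In 6-week Fas-/- cells Fmod was still above naive. It stood at 504, 308, 295 and 379 CPM, above every naive library, with a log2 fold change of 1.43 (SE 0.385, adjusted p = 0.0336, edgeR). It was the 1 member that passed, beside 6.48% of all tested genes, 3.66% higher and 2.81% lower. The call was lost with a replicate block (1.45, adjusted p = 0.0518) and when any 1 of 7 of the 8 libraries was left out (all but replicate 3 of the Fas-/- group), with log2 fold changes of 1.25 to 1.52. Ogn at 400, 381, 484 and 442 CPM also lay apart from naive and did not pass (-0.40, adjusted p = 0.233), so 2 members had groups without overlap, beside 16.1% of all tested genes. Without the endothelial-rich libraries Fmod (1.43, adjusted p = 0.000755) and Ogn (adjusted p = 0.0341) passed, beside 15% of tested genes. The other 6 members had log2 fold changes between -0.42 (Omd) and 0.39 (Lum) and did not pass.

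Between 3 and 6 weeks Ogn, Prelp and Omd mRNA rose again in Fas+/+ cells. In the 4 libraries of each week Ogn rose by 1.07 on the log2 scale (SE 0.190, adjusted p = 0.000896, edgeR), a 2.09-fold change. Prelp rose by 0.87 (SE 0.129, adjusted p = 0.000266) to 3543, 3055, 2973 and 3514 CPM, and Omd by 1.27 (SE 0.264, adjusted p = 0.0025) to 2.99, 2.65, 2.18 and 3.63 CPM. In each of the 3 every 6-week library was above every 3-week library. They were 3 of 8 members, where 22.9% of all tested genes passed, 12% higher and 10.9% lower, and 23.5% had groups without overlap. Fmod (-0.58, adjusted p = 0.279) and Lum (-0.46, adjusted p = 0.308) were lower in the mean without passing. Once the endothelial-rich libraries were left out, Fmod (-0.89, adjusted p = 0.0101), Lum (-0.71, adjusted p = 0.00695) and Bgn (-0.31, adjusted p = 0.0108) passed as lower and Ogn (1.33), Prelp (0.94) and Omd (1.48) as higher, so 6 of 8 members were called beside 36.2% of tested genes.

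In Fas-/- cells Prelp (0.69, SE 0.128, adjusted p = 0.00481), Omd (1.07, SE 0.257, adjusted p = 0.0172) and Aspn (0.67, SE 0.200, adjusted p = 0.0444) rose between 3 and 6 weeks. That was 3 of 8 members, where 9.02% of all tested genes passed, 4.48% higher and 4.54% lower. Dcn (0.60, adjusted p = 0.054) and Ogn (0.54, adjusted p = 0.0767) did not pass, though with Aspn, Prelp and Omd they made up 5 members whose 6-week libraries, at 951 to 1523 CPM for Dcn and 381 to 484 CPM for Ogn, were all above the 3-week ones, beside 17.4% of all tested genes. The Aspn call was lost when any 1 of 7 of the 8 libraries was left out, all but replicate 3 of the 3-week group, and the Omd call without replicate 3 or 4 of the 6-week group. With a replicate block Dcn passed (0.56, adjusted p = 0.0452) and Aspn did not (0.66, adjusted p = 0.0704). The 3 called without the endothelial-rich libraries were Prelp (0.58), Omd (0.96) and Ogn (0.45), beside 16.8% of tested genes.

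**Figure D2:**
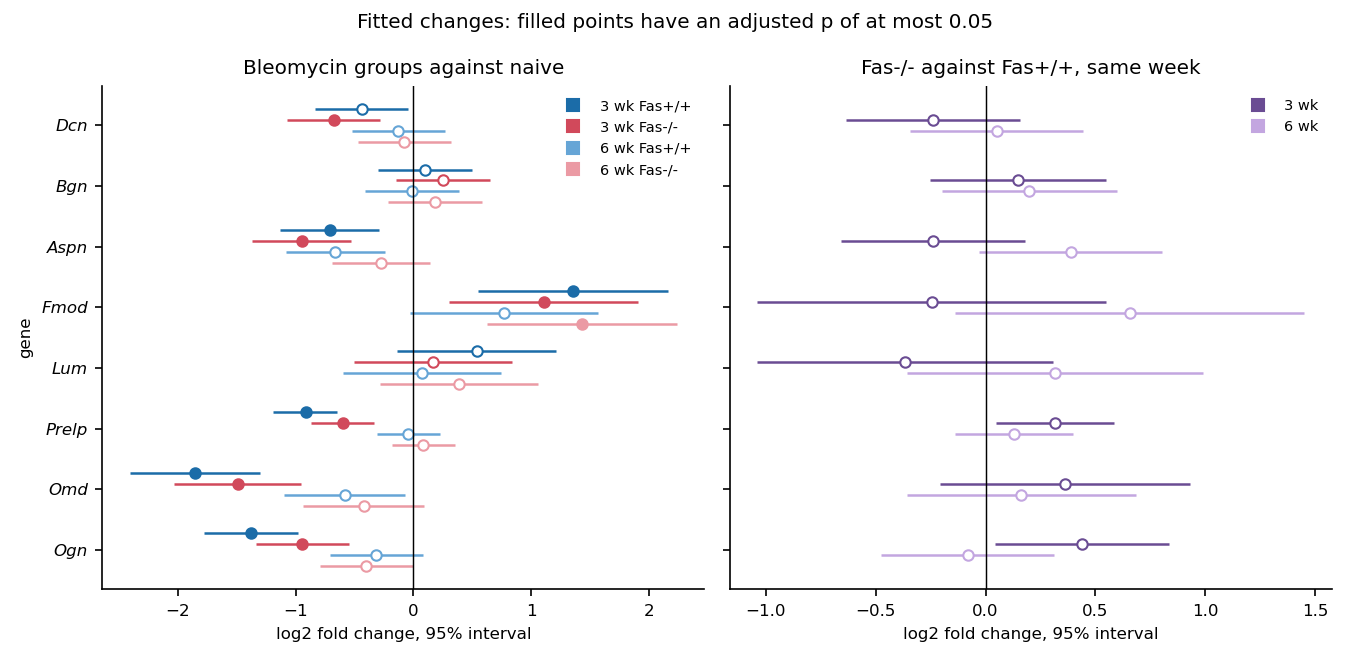
Log2 fold changes of the 8 members with 95% intervals from edgeR's fit on all 20 bulk libraries. The left panel sets each bleomycin group against naive and the right panel sets Fas-/- against Fas+/+ at the same week, and filled points passed at an adjusted p of 0.05 or less. Ogn, Prelp, Omd and Aspn are filled left of 0 at 3 weeks in both genotypes, Fmod is filled right of 0 in 3 groups, and no point of the right panel is filled.

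No member differed between the genotypes by the test. At 3 weeks 0 of 8 passed, where 0.171% of all tested genes did (0.165% higher and 0.00634% lower), 2 members had an unadjusted p below 0.05, and DESeq2 called 0. Those 2 were Ogn, with a log2 difference (Fas-/- minus Fas+/+) of 0.44 (95% interval 0.0429 to 0.834, adjusted p = 0.506), and Prelp, with 0.32 (0.0461 to 0.584, adjusted p = 0.478). The genotypes overlapped in all 8 members, whereas 3.92% of all tested genes had no overlap. Without the endothelial-rich libraries, 1 from each genotype, Ogn (0.80, adjusted p = 0.00683) and Prelp (0.50, adjusted p = 0.0165) passed as higher in Fas-/- cells, beside 3.77% of tested genes. In the 3 remaining libraries of each genotype Ogn was at 144 to 228 CPM in Fas+/+ and at 266 to 352 CPM in Fas-/- libraries, and Prelp at 1532 to 1993 and 2250 to 2556 CPM. Blood endothelial markers still differed between these libraries. Their mean log2 CPM was 7.61 to 8.03 in Fas+/+ and 5.81 to 6.53 in Fas-/- libraries. Over all 4 libraries of each genotype lipofibroblast markers summed to 5121 to 6790 CPM in Fas-/- and 3134 to 5274 CPM in Fas+/+. In the fit on all libraries 0 of 8 passed between the genotypes. In the 3 remaining libraries of each genotype these markers lay apart as Ogn and Prelp did. Their mean log2 CPM was 7.55 to 7.97 in Fas+/+ and 8.35 to 8.65 in Fas-/- libraries. The part of either marker set in the Ogn and Prelp values was not tested.

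At 6 weeks 0 of 8 members passed between the genotypes by edgeR, 0 had an unadjusted p below 0.05 and DESeq2 called 0, beside 0.0507% of all tested genes by edgeR (0.0254% in each direction). The genotypes overlapped in all 8 members, beside 6.81% of all tested genes without overlap. The log2 difference was above 0 in 7 of 8 members, beside 7834 of all 15773 tested genes. Its median was 0.181 over the members and -0.00114 over all tested genes. Fmod had the largest, 0.66, with a 95% interval of -0.138 to 1.45 (adjusted p = 0.757), from a Fas+/+ group in which replicate 4 at 413 CPM lay among the Fas-/- libraries. Aspn at 71.7, 56.4, 52.2 and 65.8 CPM in Fas-/- libraries had a log2 difference of 0.39 (-0.0309 to 0.804, adjusted p = 0.685), and the lowest of them was below the highest Fas+/+ library at 54.1 CPM. Bgn at 5454 to 7081 CPM in Fas-/- and 5065 to 5899 CPM in Fas+/+ libraries differed by 0.20 (-0.199 to 0.598), and Ogn was the member below 0 (-0.08, -0.476 to 0.312). The difference between the genotype effects at the 2 weeks was tested as an interaction, in which 0 of 8 members passed by edgeR beside 0.00634% of all tested genes. Aspn alone had an unadjusted p below 0.05 (0.62, adjusted p = 0.623), and DESeq2 called 0. Without the endothelial-rich libraries Ogn passed in the interaction (-0.88, adjusted p = 0.0254), beside 2.46% of tested genes, and 0 members passed between the genotypes at 6 weeks, beside 1.38%.

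Related matrix genes were set beside the members through lists by function. Of 10 other small leucine-rich repeat genes 8 were tested, and in 3-week Fas+/+ against naive cells 2 were higher and 3 lower, where 22.1% of all tested genes were higher and 19.2% lower. Podnl1 (2.58, adjusted p = 0.00643) and Tsku (0.83, adjusted p = 0.0314), a secreted inhibitor of BMP and Wnt signals, rose. Ecm2 (-1.44, adjusted p = 5.25e-06), Optc (-1.08, adjusted p = 0.00737) and Chadl (-0.83, adjusted p = 0.00848) fell, and Podn (-0.36), Nyx (0.91) and Chad (1.64) did not pass. Ecm2 lies next to Aspn on chromosome 13 and Optc next to Prelp on chromosome 1, and Ecm2 averaged 112 CPM in naive, 41.2 in 3-week Fas+/+, 45.1 in 3-week Fas-/-, 74.0 in 6-week Fas+/+ and 78.5 in 6-week Fas-/- libraries. The median log2 fold change of the 8 was 0.23.

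Genes of sugar chain synthesis, other proteoglycans and binding partners of decorin or biglycan moved in both directions in 3-week Fas+/+ cells. Of all tested genes 41.3% passed there, 22.1% higher and 19.2% lower. Of 21 tested genes of chondroitin and dermatan sulfate synthesis 6 were higher and 6 lower (median -0.06), among them the sulfotransferases Chst11 (2.60) and Chst15 (0.96), which rose, and Chst3 (-1.21), which fell. Keratan sulfate synthesis had 1 higher and 3 lower of 12 (median -0.01), with St3gal1 up by 1.13 and Chst4 (-1.74) and B3gnt7 (-1.35) lower. Of 23 other proteoglycans and link proteins 7 were higher and 5 lower (median 0.02), with Hapln1 (6.37) and Sdc1 (2.70) higher and Gpc3 (-0.99) lower. Among 13 ligands and receptors that decorin or biglycan bind, 3 were higher and 6 lower (median -0.35), with Tgfb1 at 2.09, Bmp4 at -0.79 and Met at -0.70. Between the genotypes at 6 weeks 0 genes passed in each of these 5 lists by edgeR, beside 0.0507% of all tested genes. The genes with the smallest p there had log2 differences of 0.37 for Chst15, -0.21 for Chst12, -0.53 for Chst7, -0.62 for Chst1, 0.45 for Chst4, 0.16 for St3gal3, -0.79 for Spock2, 2.30 for Acan, 0.29 for Gpc3, 0.25 for Lrp6, 0.43 for Tgfb3 and 0.26 for Tlr4.

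Over the 20 bulk libraries the genes whose log2 CPM profiles, each centred on its own mean, lay nearest to a member were counted as a description. The measure was the root mean square difference. Itga8 (0.0962) was nearest to Ogn, Angpt1 (0.0912) and Vldlr (0.117) to Prelp, and Fmo2 (0.198) and Gm4956 (0.229) to Omd. Mdk (0.235) and Ltbp2 (0.258) were nearest to Fmod, and Cpxm1 (0.211) and Dchs2 (0.239) to Lum. Htra1 (0.145) and Entpd2 (0.170) were nearest to Dcn, Pld3 (0.0876) and Sec24d (0.0995) to Bgn, and Lgr6 (0.206), also one of the Hhip myofibroblast markers, and Srpx (0.208) to Aspn. No member was among the 2 nearest of another member, the closest pair being Prelp and Ogn (0.234). These distances carry the shared depth and cell make-up of the libraries.

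In the single-cell libraries the members differed in the cell class of their highest level, though some shared a class. Clusters of 12059 cells were named "-like" from marker genes, the members were left out of the features used for clustering, and levels are UMI CPM (UMIs per 1000000 UMIs of the class) over all 5 libraries with exact Poisson 95% intervals that cover counting error only. With 1 library per condition no test was made. Dcn was highest in 1031 adventitial Col14a1 fibroblast-like cells at 9540 (9484 to 9597), followed by mesothelial-like cells at 5274 and Hhip myofibroblast-like cells at 3269, against 84.7 in blood endothelial-like cells. Lum and Aspn were highest in the 470 Hhip myofibroblast-like cells, at 1300 (1265 to 1335) and 2095 (2050 to 2140), against 8.51 and 4.58 in blood endothelial-like cells. These cells made up 3.90% of all cells and gave 44.0% of all Aspn UMIs and 27.1% of all Lum UMIs, while the more numerous adventitial-like and profibrotic-like cells gave 34.8% and 33.5% of the Lum UMIs.

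Fmod was highest in profibrotic fibroblast-like cells at 333 (325 to 341), followed by mesothelial-like cells at 128, and was 6.45 in Hhip myofibroblast-like cells, where Lum and Aspn peaked. Profibrotic fibroblast-like cells were 7.74% of all cells and gave 55.0% of all Fmod UMIs. Their median depth of 17677 UMIs was the highest of the named classes, so part of the gap between these shares is depth. Ogn and Prelp were highest in the 2025 lipofibroblast-like cells at 1986 (1965 to 2008) and 1384 (1366 to 1402), where Dcn was only 79.1. Omd was low in every class, with 31.2 (27.6 to 35.2) in mesothelial-like and 25.7 (22.8 to 28.8) in adventitial-like cells, intervals that overlapped. The mesothelial-like class pools cluster 17, at 41.7 (36.4 to 47.5), and cluster 12, at 12.7 (9.06 to 17.4). In the adventitial-like clusters 4 and 15 Omd was 23.1 and 30.6. Bgn was at 3814 in profibrotic, 3811 in inflammatory, 3307 in adventitial and 3269 in lipofibroblast-like cells, and at 4023 in cluster 1, which could not be named and was led by Clec11a, Mmp3 and Gdf10. Its highest value in a single cluster, 4760 (4692 to 4829), was in the adventitial-like cluster 15, against 2547 in cluster 4 of the same class. The named class with the most Bgn became the inflammatory one at a coarser clustering (resolution 0.4), while the class stayed the same for the other 7 members.

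Shares of cells with a UMI are given for the class of highest level beside blood endothelial-like cells. The highest share was not always in that class, and free RNA was not measured. Thinned shares cover only cells with at least 3000 UMIs, such as 1561 of the 2025 lipofibroblast-like cells. They and the shares before thinning therefore come from different sets of cells. Dcn was found in 97.6% of adventitial-like cells (95% exact binomial interval 96.4% to 98.4%) and in 23.2% of blood endothelial-like cells, with median depths of 10363 and 4752 UMIs, and in 96.3% and 14.1% after thinning to 3000 UMIs a cell. In mesothelial-like cells the Dcn share was 96.6%, and 98.9% thinned. Aspn was found in 85.3% of Hhip myofibroblast-like and 2.51% of blood endothelial-like cells (82.6% and 1.46% thinned, median depth of the former 6897). Ogn was found in 94.2% of lipofibroblast-like and 12.5% of blood endothelial-like cells (97.6% and 7.66% thinned, median depth of the former 7847). It was also found in 98.4% of inflammatory-like cells and 97.5% of cluster 1 (89.1% and 91.3% thinned). Fmod was found in 63.3% of profibrotic-like cells and 2.30% of blood endothelial-like cells, and in 45.6% and 1.35% when thinned, since profibrotic-like cells had a median of 17677 UMIs. Within adventitial-like cells the 709 cells of cluster 4 held 12630 Dcn and 845 Lum UMI CPM, and the 322 cells of cluster 15 held 3631 and 116.

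**Figure D3:**
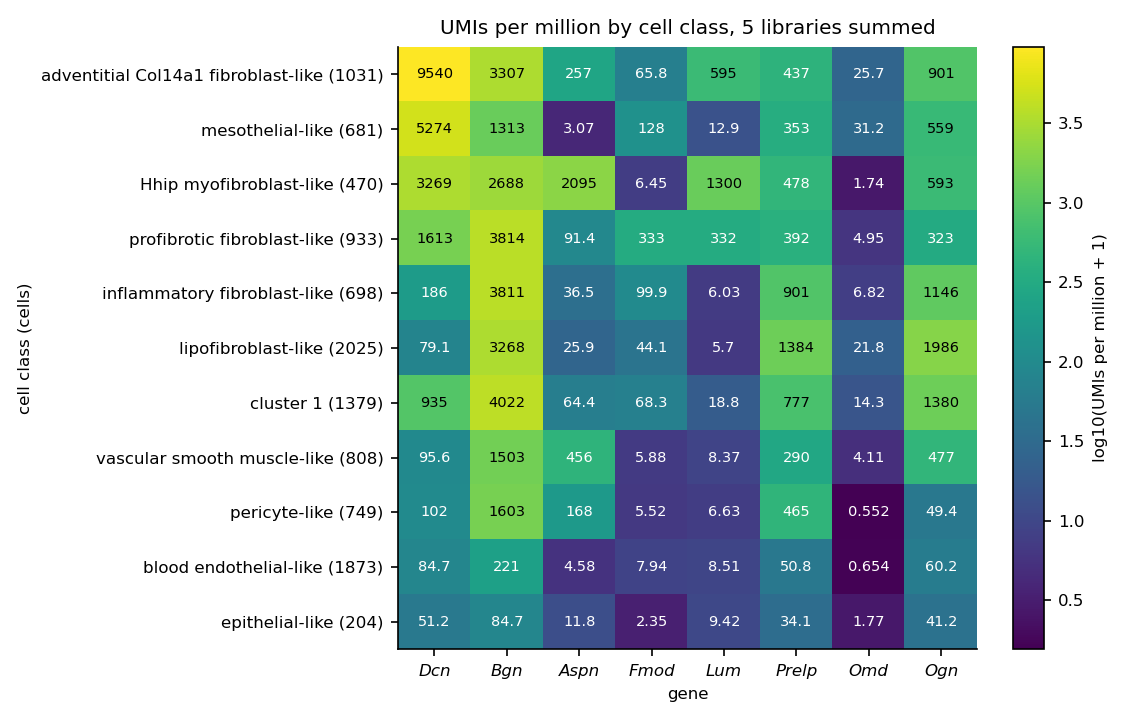
UMI CPM (per 1000000 UMIs) of the 8 members in 10 named cell classes and in cluster 1, with the 5 single-cell libraries summed. Colour is log10 of the value plus 1, numbers in the tiles are the values, and numbers of cells are in parentheses. Dcn peaks in the adventitial row at 9540, Aspn and Lum in the Hhip row, Fmod in the profibrotic row, and Ogn and Prelp in the lipofibroblast row, while blood endothelial and epithelial rows are low for every member.

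Levels within a class are given by condition, with 1 library for each and no test. Ogn in lipofibroblast-like cells was 1948 (1881 to 2017) in naive, 2144 in 3-week Fas+/+, 2152 in 3-week Fas-/-, 1860 in 6-week Fas+/+ and 1765 in 6-week Fas-/- cells. Prelp in the same cells was 1217, 1593, 1461, 1308 and 1187 in that order. Both were higher at 3 weeks than in naive cells of this class, with intervals apart, and without shared barcodes the naive values were 1858 for Ogn and 1120 for Prelp. The class pools clusters 0 and 8. In cluster 0 Ogn was 1955 in naive and 2178 and 2236 in 3-week Fas+/+ and Fas-/- cells, with intervals apart. In the shallower cluster 8 Ogn was not higher at 3 weeks, at 1891 (1692 to 2107) in naive and 1838 and 1637 at 3 weeks. There the Prelp intervals overlapped. In profibrotic-like cells Ogn was 743 and 875 at 3 weeks and 222 and 206 at 6 weeks in Fas+/+ and Fas-/-, and Prelp was 709 and 768 against 278 and 342.

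Fmod in profibrotic-like cells was 368 (341 to 398) and 490 (458 to 523) at 3 weeks and 320 (307 to 334) and 305 (293 to 316) at 6 weeks in Fas+/+ and Fas-/-. The naive library held 10 such cells, all with a barcode shared with another library, and 1 Fmod UMI. Profibrotic-like cells gave 0.372% of the Fmod UMIs of the naive library, 32.5% and 49.2% at 3 weeks and 61.9% and 66.2% at 6 weeks. Inflammatory fibroblast-like cells held less, from 22.4 UMI CPM in the naive library to 125 in 6-week Fas-/-. Dcn in adventitial-like cells was 9320, 10396, 10279, 9917 and 7958 from naive to 6-week Fas-/-. The lowest was the 6-week Fas-/- library with and without shared barcodes (7888), and in its cluster 4 alone Dcn was 10717 against 13642 in 6-week Fas+/+ cells. In cluster 15 of the same class the order was the other way. Dcn was 3609 (3501 to 3719) there in 6-week Fas-/- and 3031 (2924 to 3142) in 6-week Fas+/+ cells.

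Aspn in Hhip myofibroblast-like cells was 3111 in naive cells, 2141 and 1642 at 3 weeks, and 2486 and 1675 at 6 weeks in Fas+/+ and Fas-/-. Without shared barcodes the naive value, from 24 cells, was 1626 (1401 to 1878), so the naive level was then no higher than the others. Lum in these cells was 912 in naive cells, or 612 without shared barcodes, and 1179 to 1508 in the 4 bleomycin libraries. Omd in mesothelial-like cells was 9.93 (5.89 to 15.7) in 6-week Fas+/+ cells and 29.4 to 44.3 in the other 4 libraries. It was lower there than in the other bleomycin libraries in cluster 17, the deeper of the 2 mesothelial-like clusters, as well, at 17.8 against 49.2 in 6-week Fas-/- cells.

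**Figure D4:**
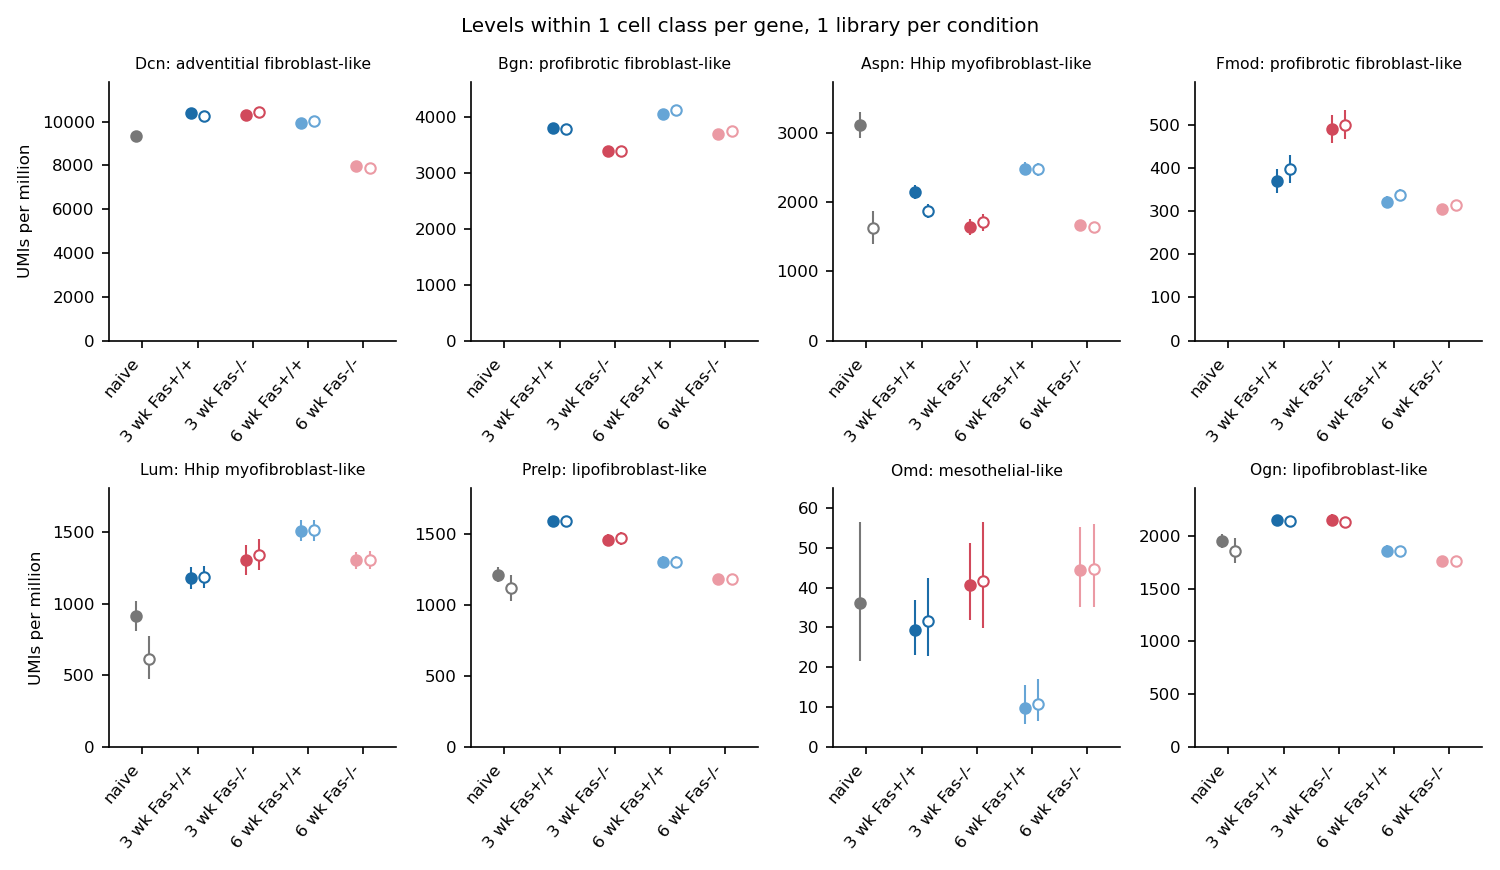
UMI CPM (per 1000000 UMIs) of each member in the named class where it was highest, by library, on linear axes from 0. Filled points are all cells, open points leave out cells whose barcode occurs in more than 1 library, whiskers are exact Poisson 95% intervals, and classes with fewer than 20 cells are not drawn. The open naive points lie below the filled ones for Aspn and Lum, and Ogn and Prelp in lipofibroblast-like cells are highest at 3 weeks.

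Bulk and single-cell libraries gave different orders of the conditions for Ogn and Prelp. Over whole single-cell libraries Ogn was 1275 UMI CPM in naive, 1210 and 1222 at 3 weeks, and 524 and 685 at 6 weeks in Fas+/+ and Fas-/-. Prelp was 712 in naive, 779 and 802 at 3 weeks, and 429 and 536 at 6 weeks. In bulk libraries the lowest levels of both genes were at 3 weeks, with 6-week levels above them, so the week with the lowest level differed between the assays. Of the 6-week Fas+/+ single cells 36.6% were blood endothelial-like, and the part of cell make-up in these values was not tested. Fmod was lowest in the naive single-cell library, at 47.9 UMI CPM (28.8 without shared barcodes) against 75.7 to 121 in the bleomycin libraries. In bulk the naive group had the lowest Fmod mean, though replicate 1 of 3-week Fas+/+ (94.7 CPM) was below every naive library. Dcn in the naive library was 1964 with all barcodes and 735 without the shared ones, and was 1623 to 2218 in the other libraries.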

How the data were processed

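Reads of the bulk libraries (KAPA stranded poly-A kit) were trimmed with skewer, aligned to GRCm38 with HISAT2 and counted per Ensembl gene with htseq-count by the authors, who deposited raw counts. A deposited table of normalized values was not used. The 5 deposited 10x matrices hold UMI counts from Cell Ranger. Raw bulk counts of all 5 groups were fitted together with edgeR 4.0.16 (R 4.3.3; filterByExpr defaults, TMM, quasi-likelihood F test, Benjamini-Hochberg over 15773 genes, threshold 0.05), after the script was tested on simulated data. DESeq2 1.42.0, RLE scaling, no filter, a replicate block, marker covariates, the compared groups alone and each library left out were alternatives. Barcodes with 200 to 7500 detected genes, and no more than 20% of UMIs from mitochondria, were integrated by Seurat 5.3.0 and sctransform 0.4.2 (20 components, resolution 0.8, 23 clusters, 4 unnamed). Scrublet marked 1 to 23 cells a library as doublets (0.113% to 0.882% of the cells), and they were kept. Whether it missed doublets was not tested. UMIs were summed per class, and shares were thinned to 3000 UMIs a cell over the cells with at least 3000 UMIs. RPKM used merged GENCODE exons (GRCm38), and promoters came from RefSeq (GRCm38.p6). Named genes were the 8 members, all tested small leucine-rich repeat genes, the 3 genes of each other list with the smallest p in 3-week Fas+/+ against naive and in 6-week Fas-/- against Fas+/+, and the 2 nearest profiles of each member, of which 1 is not reported here. The members, lists and tests were chosen with earlier results of these data known.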

Additional observations from a re-analysis of the deposited data

Results flagged for a closer look

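In each of 40 sets of 4 bulk libraries (8 members in 5 groups, log2 CPM) the most distant library was compared with the rest by Dixon's ratio, for which chance alone marks about 1 set in 20, and 8 sets were marked. In 3-week Fas+/+ libraries replicate 1 was low for Bgn (3307 CPM) and for Fmod (94.7 CPM). In 3-week Fas-/- libraries replicate 4 was low for Bgn (4628 CPM), Lum (27.4 CPM) and Aspn (22.6 CPM). Those 5 values came from the 2 libraries with the highest summed endothelial markers, and the part of those markers in them was not tested. Dcn was high in replicate 4 of the 6-week Fas+/+ libraries (1379 CPM) and in replicate 4 of the 6-week Fas-/- libraries (1523 CPM), and Omd was low in naive replicate 1 (3.23 CPM).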

How the results depend on the processing

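Counts of members called by edgeR changed as follows, and the cause was not tested. With an epithelial marker covariate, whose level is lower in all naive than in all bleomycin libraries, 1 member (Ogn) was called in 3-week Fas+/+ and 0 in 3-week Fas-/- and 6-week Fas-/- against naive, and 1 (Prelp) in 6-week against 3-week Fas-/-. An endothelial covariate called 1 (Fmod), DESeq2 1 (Aspn) and the compared groups alone 2 (Ogn, Aspn) in 6-week Fas+/+ against naive. DESeq2 called 5 in 6-week against 3-week Fas-/-, and the compared groups alone 2 (Fmod, Ogn) in 6-week Fas-/- against naive. Without the 2 endothelial-rich libraries the counts were 2 in each 6-week group against naive, 2 between genotypes at 3 weeks, 6 in 6-week against 3-week Fas+/+ and 1 in the interaction. DESeq2 called 163 genes of all between genotypes at 3 weeks and 162 at 6 weeks, where edgeR called 27 and 8. Replicate numbers did not pair the libraries (correlations of same-numbered deviations from -0.464 to 0.403), and the replicate block called 0 in 6-week Fas-/- against naive, 6 in each 3-week group against naive (adding Dcn in Fas+/+) and 3 in each comparison of weeks (Dcn in place of Aspn in Fas-/-). With 1 library left out the counts were 5 to 6 in each 3-week group against naive, 0 to 1 in each 6-week group against naive, 0 to 1 between genotypes at 3 weeks (Ogn without Fas+/+ replicate 1, Prelp without Fas-/- replicate 4), 0 at 6 weeks and in the interaction, 3 to 4 in 6-week against 3-week Fas+/+ and 1 to 3 in Fas-/-. Values that changed sign were not called in either fit. With the endothelial covariate these were 0.03 (Dcn), 0.27 (Bgn) and 0.09 (Prelp) in 6-week Fas+/+ against naive, -0.03 for Bgn between genotypes at 3 weeks and for Dcn at 6 weeks, -0.18 for Aspn in 6-week against 3-week Fas+/+, and -0.05 (Lum) and -0.07 (Fmod) in Fas-/-. With the epithelial covariate they were 0.11 for Dcn in 3-week Fas+/+, 0.36 (Dcn), 0.37 (Bgn) and 0.11 (Prelp) in 6-week Fas+/+ and 0.25 for Dcn in 6-week Fas-/- against naive, -0.11 for Dcn between genotypes at 6 weeks, -0.07 for Lum in 6-week against 3-week Fas-/- and -0.06 for Bgn in the interaction. Lum was -0.04 in that comparison of weeks without the endothelial-rich libraries. With 1 library left out the ranges that crossed 0 were -0.06 to 0.01 (Bgn) and -0.06 to 0.24 (Lum) in 6-week Fas+/+ and -0.26 to 0.01 (Dcn) in 6-week Fas-/- against naive, -0.05 to 0.28 (Bgn, 3 weeks) and -0.13 to 0.18 (Dcn, 6 weeks) between genotypes, -0.05 to 0.15 (Aspn) in 6-week against 3-week Fas+/+, -0.19 to 0.01 (Bgn) and -0.04 to 0.35 (Lum) in Fas-/-, and -0.08 to 0.25 (Bgn) in the interaction. Of the other 512 of 576 values under a changed setting the direction and the side of the threshold were the same. At resolution 0.4, 7 of 8 members kept their highest class. Depth limits Omd most, at 12 to 118 counts a library.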
